A study of Mus musculus with 33 samples.

Results

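*Chil1*, *Chil3*, *Chil4*, *Ear1*, *Ear2* and *Ear10*, the chitinase-like and eosinophil-associated ribonuclease genes followed here, are 6 of the 24421 genes counted in each of 33 bulk RNA-seq samples of sorted mouse macrophages (macs). They were chosen by symbol, whatever their level, and all 6 had counts. Alveolar macs (AMs), the macs of the lung airspaces, were taken from *Zeb2* fl/fl mice that lack Cre (CRE- AMs, n = 5) and from mice that carry *Itgax-cre* besides *Zeb2* fl/fl, where CD11b- and CD11b+ AMs were sorted apart (n = 5 each). Kupffer cells (KCs), the resident macs of the liver, were taken from *Zeb2* fl/fl mice that lack Cre (CRE- KCs, n = 6) and from mice that carry *Clec4f-cre* besides *Zeb2* fl/fl, where Tim4+ and Tim4- KCs were sorted apart (n = 6 each). All mice were on a C57Bl/6 background, 6 to 8 weeks old and untreated, the controls were littermates that also carry the floxed alleles, and 25000 cells were sorted per sample. ZEB2 is a zinc finger repressor that binds E-box sequences.

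The groups are limited as models of *Zeb2* loss. *Itgax-cre* is active in other cells with CD11c as well as in AMs, *Clec4f-cre* also reached a minor population of B cells, and sorted CRE+ cells can include cells that kept a *Zeb2* copy. *Zeb2* had 194 ± 16.3 CPM (counts scaled to library size with TMM factors; SD, n = 5) in CRE- AMs, 105 ± 11.9 in CD11b- AMs and 62.1 ± 7.88 in CD11b+ AMs. In KCs it had 283 ± 38.7 CPM (SD, n = 6) in CRE- cells, 175 ± 25.9 in Tim4+ cells and 170 ± 16.3 in Tim4- cells. These counts cover the whole gene and not only its deleted part. Summed markers told the labelled cell types apart. The summed level of 10 AM markers was between 6177 and 8856 CPM in the AM samples and between 355 and 2258 CPM in the KC samples, and that of 10 KC markers between 11540 and 28180 CPM in KCs and between 85.8 and 252 CPM in AMs. Most of the AM marker sum in Tim4+ KCs was *Marco* (mean 1608 CPM). The sums hide changes of single markers. By the rule for a call given below, 3 of the 10 AM markers were lower and 2 higher in CD11b+ than in CRE- AMs. Of the 10 KC markers, 5 were lower and 1 higher in Tim4- than in CRE- KCs, with *Timd4*, the sort marker, among the lower ones. Library totals ran from 9837240 counts, in Tim4- KC replicate 1, to 24332306. The floor of detection was set at 3 counts, on average 0.142 CPM in CRE- KCs.

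Chitinase-like proteins share the fold of the glycosyl hydrolase 18 family but cannot cut chitin. *Chil3* encodes Ym1 and *Chil4* Ym2, secreted lectins known from AMs and from macs exposed to the type 2 cytokines IL-4 and IL-13. *Chil1* encodes the mouse counterpart of human YKL-40 and binds the decoy receptor IL-13Rα2. The Ear genes encode secreted ribonucleases of the RNase A superfamily, first described in eosinophil granules, which have multiplied in rodents through gene duplication. *Ear1* and *Ear2* are also known from AMs.

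Apart from *Chil1*, the members lie in clusters of near copies, and this bears on their values. On chromosome 3 of GRCm38, *Chil3* spans 106147554 to 106167564 and *Chil4* spans 106201490 to 106219507, both on the minus strand and each with 11 exons in its longest transcript. *Chil1* is on the plus strand of chromosome 1 from 134182176 to 134190181, with 10 exons. *Ear1* (minus strand, 43818765 to 43875517), *Ear10* (minus strand, 43922720 to 43923559) and *Ear2* (plus strand, 44102654 to 44103534) lie together on chromosome 14, and the longest transcript of each has 2 exons. *Ear6*, a further family member that the results turn on, is on the plus strand of the same chromosome from 51853699 to 51854643. The coding sequence of *Ear1* was 95.1% identical to that of *Ear2*, 94.4% to that of *Ear10* and 87.3% to that of *Ear6*. *Chil3* and *Chil4* were 94.4% identical, whereas *Chil1* was 55.6% identical to *Chil3*. The first 120 coding bases of the Ear genes, from GENCODE M21, show how little tells them apart. Capitals mark letters that differ from *Ear1* or are inserted.
Ear1: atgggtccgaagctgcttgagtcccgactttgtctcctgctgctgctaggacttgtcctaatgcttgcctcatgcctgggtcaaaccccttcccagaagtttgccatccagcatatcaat
Ear2: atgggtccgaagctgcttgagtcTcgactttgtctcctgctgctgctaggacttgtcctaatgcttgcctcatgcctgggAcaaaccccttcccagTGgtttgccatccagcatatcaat
Ear10: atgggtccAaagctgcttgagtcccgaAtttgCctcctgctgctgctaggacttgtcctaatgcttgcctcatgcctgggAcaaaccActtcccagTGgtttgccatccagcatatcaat
Ear6: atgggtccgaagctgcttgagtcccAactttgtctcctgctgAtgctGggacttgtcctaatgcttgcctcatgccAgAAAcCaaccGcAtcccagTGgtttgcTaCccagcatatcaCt
In the same stretch *Chil4* differs from *Chil3* at 3 letters, again in capitals.
Chil3: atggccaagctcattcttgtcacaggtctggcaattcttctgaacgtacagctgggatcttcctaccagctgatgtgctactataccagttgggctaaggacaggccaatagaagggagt
Chil4: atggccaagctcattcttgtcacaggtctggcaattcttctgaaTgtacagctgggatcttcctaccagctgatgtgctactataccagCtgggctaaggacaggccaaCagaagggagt

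Reads had been kept from a length of 35 bases. Of all windows of 35 bases in the longest transcript, 70.5% in *Ear1*, 55.2% in *Ear2* and 46.1% in *Ear10* were also found in a transcript of another gene, and so were 41.2% in *Chil3* and 31.1% in *Chil4*. At 75 bases the shares were 39.3%, 23.4%, 32.5%, 14.2% and 9.76%. *Chil1* shared no window of any of these lengths, and *Ear6* shared 5.47% at 35 bases and none at 75. Levels of *Ear1*, *Ear2*, *Ear10*, *Chil3* and *Chil4* may thus hold reads of each other or of pseudogenes, and their counts are uncertain to that extent, while *Chil1* and *Ear6* are largely free of this.

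The 250 bases before the start sites are shown for *Ear1* and *Ear2*, which fell in CD11b+ AMs, and for *Ear6*, which rose there (RefSeq, GRCm38.p6). The *Ear2* promoter was 97.6% identical to that of *Ear1* and the *Ear6* promoter 78.2%. These identities count gaps and overhanging ends, and the *Ear6* window starts further in than that of *Ear1*. Each runs 5′ to 3′ on the strand of its gene, and capitals mark letters that differ from *Ear1* or are inserted. They lie at chr14:43819640-43819889 (minus strand), chr14:44102404-44102653 (plus strand) and chr14:51853518-51853767 (plus strand). The windows follow RefSeq start sites, whereas the gene positions above are GENCODE spans, and these differ. By the GENCODE span the *Ear1* window lies inside its gene, far from the 5′ end. The *Ear6* window overlaps the 5′ end of its gene by its span. Bases before the 5′ end of the GENCODE span of *Ear1* were not examined.
Ear1: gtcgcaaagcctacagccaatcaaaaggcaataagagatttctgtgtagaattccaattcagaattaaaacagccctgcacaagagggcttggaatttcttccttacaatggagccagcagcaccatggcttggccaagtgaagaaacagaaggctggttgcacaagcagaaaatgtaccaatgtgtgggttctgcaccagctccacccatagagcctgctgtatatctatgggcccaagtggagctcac
Ear2: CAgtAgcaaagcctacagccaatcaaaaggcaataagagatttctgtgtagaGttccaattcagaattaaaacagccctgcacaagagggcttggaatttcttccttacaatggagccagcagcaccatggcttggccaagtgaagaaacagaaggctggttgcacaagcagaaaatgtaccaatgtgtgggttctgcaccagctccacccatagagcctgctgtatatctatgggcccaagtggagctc
Ear6: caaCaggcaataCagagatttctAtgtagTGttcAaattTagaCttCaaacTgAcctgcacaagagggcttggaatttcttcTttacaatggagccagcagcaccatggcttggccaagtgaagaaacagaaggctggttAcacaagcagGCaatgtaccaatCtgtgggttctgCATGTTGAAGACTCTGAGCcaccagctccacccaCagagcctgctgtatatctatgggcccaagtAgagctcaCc
The promoters of *Chil3* (chr3:106167565-106167814, minus strand) and *Chil4* (chr3:106219480-106219729, minus strand) were 72.0% identical, with capitals as above relative to *Chil3*. The *Chil4* window is shifted against that of *Chil3*, and its closing run of capitals lies beyond the *Chil3* window. The identity counts these overhanging ends and so understates the likeness of the stretch that both windows cover. By the GENCODE span the *Chil4* window overlaps the 5′ end of its gene.
Chil3: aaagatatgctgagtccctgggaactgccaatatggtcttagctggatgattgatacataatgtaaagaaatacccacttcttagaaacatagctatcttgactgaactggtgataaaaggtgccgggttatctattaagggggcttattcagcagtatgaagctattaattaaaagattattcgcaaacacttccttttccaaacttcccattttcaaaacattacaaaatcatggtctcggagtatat
Chil4: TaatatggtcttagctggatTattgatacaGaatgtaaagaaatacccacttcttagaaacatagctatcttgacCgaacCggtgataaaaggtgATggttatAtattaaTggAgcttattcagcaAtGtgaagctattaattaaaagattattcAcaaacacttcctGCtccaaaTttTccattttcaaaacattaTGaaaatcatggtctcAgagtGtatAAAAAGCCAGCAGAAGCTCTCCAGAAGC
CACCTG, an E-box of the kind ZEB proteins bind, was searched on both strands together with TTCNNNGAA, a STAT-type motif, its form with 1 more base in the middle, the ETS-type motif GAGGAAG and TATAAA. The 250 bases held CACCTG in none of the 6 genes, against 17.2% of the 32851 RefSeq promoters. TTCNNNGAA was found in *Chil3* and *Chil4*, as TTCTTAGAA in both, and in 7.02% of all promoters. TATAAA was found in *Chil4* and in 12.4% of all promoters. The match in *Chil4* starts at -31, at the place where the shifted *Chil3* window ends. These windows thus cannot tell whether *Chil3* lacks it. The longer STAT-type form, in 5.85% of all promoters, and GAGGAAG, in 10.6%, were found in none of the 6. These matches describe letters and no binding.

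The first comparison asked how the 6 genes differ between the tissues when *Zeb2* is intact. *Chil3*, *Chil4*, *Ear1*, *Ear2* and *Chil1* were all lower in KCs, and *Chil3* was the second most counted gene of every CRE- AM sample. A gene was called where edgeR's quasi-likelihood test gave a Benjamini-Hochberg adjusted p under 0.05 over all genes tested and an absolute log2 fold change above 1. All 5 members that passed the filter on low counts were called lower in KCs. Of the 12145 genes tested, 33.3% were called in either direction and 1502 were called lower. *Chil1*, *Chil3*, *Chil4* and *Ear1* had at most 20 counts in any CRE- KC sample and passed the filter through the AM samples. They could thus only be called lower, and *Ear2* alone of the tested members had a level in both tissues. *Ear10* was not tested because of its low counts.

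*Chil3* had 16600, 27020, 25450, 26490 and 25430 CPM in the 5 CRE- AM samples. In CRE- KCs it lay between 0 and 1.05 CPM, with a median of 0.0923, and 2 of 6 samples had no count. Every AM sample was far above every KC sample (log2 fold change of KCs over AMs -16.59, SE 0.42, adjusted p = 2.23e-13 by edgeR). *Chil3* took 2.48% of all counts in CRE- AMs. *Chil4*, its neighbour, had 2.41, 3.56, 3.80, 3.52 and 3.54 CPM in CRE- AMs and no count in any of the 18 KC samples, so that it was at least 23.6-fold higher in CRE- AMs than in CRE- KCs against a floor of 3 counts per library. Its call in edgeR (adjusted p = 1.61e-06) rests on that absence.

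*Ear1* had 607, 556, 563, 599 and 592 CPM in CRE- AMs and between 0.184 and 0.401 CPM in CRE- KCs, with a median of 0.231. *Ear2* had 426, 416, 448, 478 and 390 CPM in CRE- AMs and between 28.3 and 34.6 CPM in CRE- KCs, with a median of 32.2. The ranges of the tissues lay apart for both genes, and *Ear2* was the member that KCs carried at a steady level. The log2 fold changes of KCs over AMs were -11.09 (SE 0.11, adjusted p = 5.75e-17) for *Ear1* and -3.77 (SE 0.076, adjusted p = 3.02e-14) for *Ear2*. *Chil1* was low in both, with 2.41, 0.877, 0.640, 1.19 and 1.11 CPM in CRE- AMs and a highest value of 0.539 CPM in CRE- KCs (log2 fold change -3.14, SE 0.87, adjusted p = 0.00602). Per kilobase of transcript, CRE- AMs had 15720 CPM of *Chil3*, 818 of *Ear1*, 600.1 of *Ear2*, 2.19 of *Chil4*, 0.756 of *Ear10* and 0.677 of *Chil1*.

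**Figure D1:**
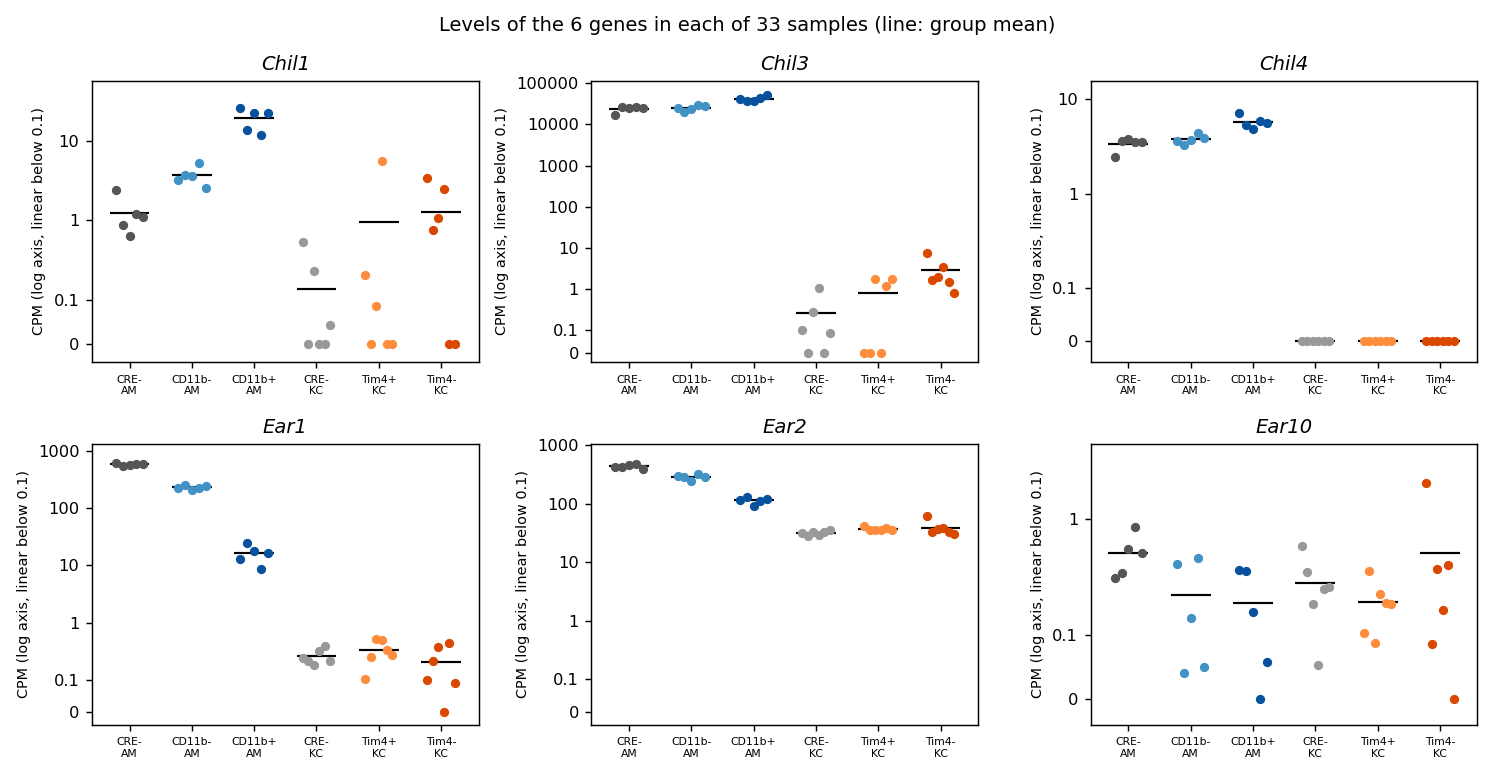
Level of each of the 6 genes in the 33 samples, in TMM-scaled CPM on a log axis that is linear below 0.1, by group (AM groups n = 5, KC groups n = 6), with a line at each group mean. *Ear1* and *Ear2* step down from CRE- over CD11b- to CD11b+ AMs, *Chil1* steps up, *Chil3* is at 16600 CPM or more in every AM sample, and *Chil4* is at 0 in every KC sample.

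The next comparisons asked what *Zeb2* deletion did to these genes in AMs. *Chil1* rose in both CRE+ populations and *Ear1* fell in both, *Ear2* fell past the 2-fold line in CD11b+ AMs, and *Chil3* and *Chil4* were higher in CD11b+ AMs by less than 2-fold. In CD11b- AMs, 2 of the 5 tested members were called (*Chil1* higher, *Ear1* lower) against 6.50% of 11573 genes. In CD11b+ AMs, 3 of 5 were called (*Chil1* higher, *Ear1* and *Ear2* lower) against 15.3%, and between CD11b+ and CD11b- AMs the same 3 genes were called in the same directions against 10.2%. By the adjusted p alone, without the fold limit, 3 members passed in CD11b- AMs (25.7% of all genes), 5 in CD11b+ AMs (43.2%) and 5 between the CRE+ groups (36.4%). The median log2 fold change over all genes was -0.0052 in CD11b+ AMs.

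*Ear1* had 224, 252, 206, 228 and 243 CPM in CD11b- AMs and 13.2, 24.9, 17.8, 8.80 and 16.5 CPM in CD11b+ AMs. The 3 AM groups did not overlap, and CD11b+ AMs were lowest. Against CRE- AMs, the log2 fold change was -1.35 (SE 0.15, adjusted p = 1.79e-06) in CD11b- AMs and -5.18 (SE 0.18, adjusted p = 1.87e-14) in CD11b+ AMs, 36.3-fold lower. CD11b+ AMs were also below CD11b- AMs, with -3.83 on the log2 scale (SE 0.17, adjusted p = 5.64e-12).

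*Ear2* had 301, 286, 243, 325 and 287 CPM in CD11b- AMs and 117, 127, 90.3, 110 and 121 CPM in CD11b+ AMs. The groups were again apart and in the same order as for *Ear1*, with smaller steps. Its log2 fold change was -0.59 (SE 0.088, adjusted p = 5.17e-05) in CD11b- AMs, which is short of 2-fold, and -1.95 (SE 0.091, adjusted p = 1.24e-12) in CD11b+ AMs. From CD11b- to CD11b+ AMs it was -1.36 (SE 0.090, adjusted p = 1.02e-09).

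The ratio of the paralogs was also taken within each sample. CRE- AMs held 1.42, 1.34, 1.26, 1.26 and 1.52 *Ear1* counts per *Ear2* count, CD11b- AMs 0.744, 0.881, 0.848, 0.703 and 0.844, and CD11b+ AMs 0.113, 0.196, 0.197, 0.0800 and 0.137. *Ear1* thus led in every CRE- sample and *Ear2* in every CRE+ sample. Each pair of groups differed with p = 0.00794 (two-sided exact permutation test, the smallest that 5 against 5 samples allow), 0.0119 after adjustment over the 9 ratio tests. In KCs the median ratio was 0.00772 in CRE- cells, 0.00816 in Tim4+ cells and 0.00472 in Tim4- cells. With the counts of *Ear1*, *Ear2*, *Ear3*, *Ear4*, *Ear6*, *Ear7*, *Ear10*, *Ear12* and *Ear14* added up, which a division of reads among them would not change, the log2 fold change was -0.94 (SE 0.067, adjusted p = 3.41e-09) in CD11b- AMs and -2.82 (SE 0.072, adjusted p = 2.54e-16) in CD11b+ AMs by edgeR.

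*Ear10* was near the limit of detection. It had 7, 7, 12, 18 and 10 counts in the CRE- AM samples, between 1 and 8 in CD11b- AMs and between 0 and 7 in CD11b+ AMs. The ranges of these groups overlapped. As *Ear10* shares 46.1% of its windows with other genes, even these counts may not be its own, and this was not tested.

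*Chil1* had 3.19, 3.72, 3.64, 5.31 and 2.51 CPM in CD11b- AMs and 25.6, 13.8, 22.1, 11.9 and 22.1 CPM in CD11b+ AMs. All 3 groups were apart, in the reverse order of *Ear1* and *Ear2*. The log2 fold change against CRE- AMs was 1.54 (SE 0.32, adjusted p = 0.00125) in CD11b- AMs and 3.91 (SE 0.33, adjusted p = 5.93e-09) in CD11b+ AMs, and that of CD11b+ over CD11b- AMs was 2.37 (SE 0.30, adjusted p = 3.56e-06). When all 33 samples shared 1 fit, *Chil1* kept its log2 fold changes but was no longer called in CD11b- AMs (1.55, adjusted p = 0.316) or between the CRE+ groups (2.38, adjusted p = 0.0719).

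*Chil3* had 24810, 19660, 23080, 28920 and 27610 CPM in CD11b- AMs, overlapping the CRE- samples, and 41600, 37030, 37830, 44620 and 51660 CPM in CD11b+ AMs. All CD11b+ samples were above all other AM samples, and *Chil3* moved from the second to the first rank of all genes by counts in each of them. For *Chil3* the log2 fold change was 0.03 (SE 0.12, adjusted p = 0.904) in CD11b- AMs and 0.80 (SE 0.12, adjusted p = 2.34e-05) in CD11b+ AMs. Between CD11b+ and CD11b- AMs it was 0.77 (SE 0.12, adjusted p = 5.91e-05). The lowest CRE- sample, replicate 1, set much of the spread, and without it the log2 fold change in CD11b- AMs turned to -0.082.

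*Chil4* had 3.60, 3.27, 3.64, 4.39 and 3.89 CPM in CD11b- AMs and 7.01, 5.28, 4.85, 5.79 and 5.56 CPM in CD11b+ AMs. The CD11b+ samples were again above all others (log2 fold change against CRE- AMs 0.74, SE 0.21, adjusted p = 0.00729). Between CD11b+ and CD11b- AMs the value was 0.59 (SE 0.21, adjusted p = 0.0332), and the adjusted p rose above 0.05 without CD11b- replicate 1, 2 or 3 or CD11b+ replicate 1 or 4. Per 10000 *Chil3* counts it had 1.32 to 1.49 counts in CRE- AMs, 1.41 to 1.66 in CD11b- AMs and 1.08 to 1.69 in CD11b+ AMs. None of the 3 differences passed (two-sided exact permutation tests, n = 5 per group). The log2 difference from CRE- AMs was 0.13 in CD11b- AMs (adjusted exact p = 0.0714) and -0.058 in CD11b+ AMs (adjusted exact p = 0.603), and that of CD11b+ from CD11b- AMs was -0.18 (adjusted exact p = 0.170). Whether these counts are reads of *Chil4* or reads of *Chil3* set on its neighbour was not tested.

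**Figure D2:**
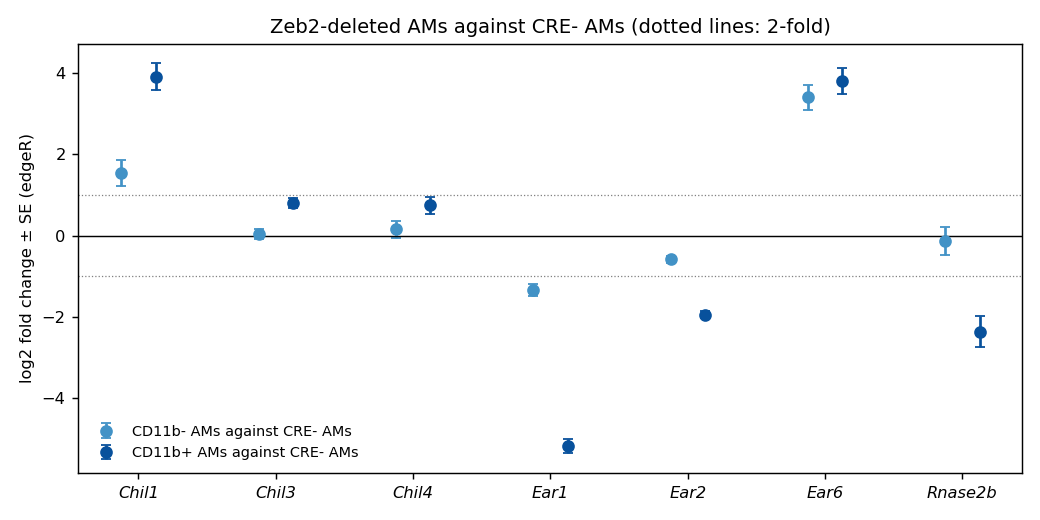
Log2 fold change ± SE (edgeR) in CD11b- and CD11b+ AMs against CRE- AMs (n = 5 per group) of the 5 tested members and of *Ear6* and *Rnase2b*, with dotted lines at a 2-fold change. *Ear1* is at -5.18 and *Ear6* at 3.80 in CD11b+ AMs, while *Chil3* and *Chil4* stay inside the dotted lines.

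**Figure D3:**
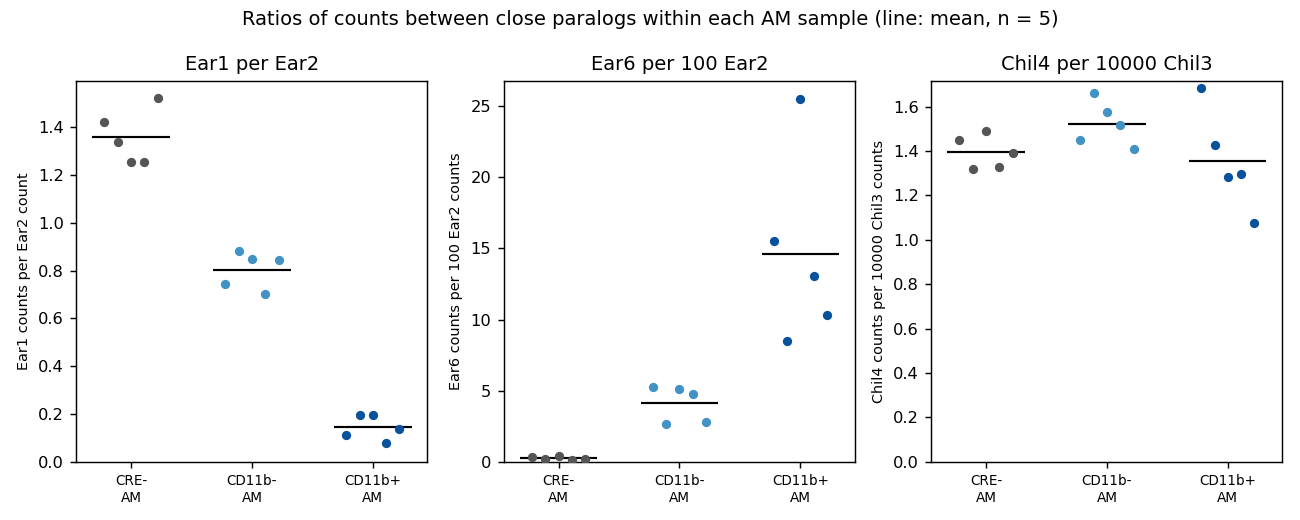
Counts of *Ear1* per *Ear2* count, of *Ear6* per 100 *Ear2* counts and of *Chil4* per 10000 *Chil3* counts in each AM sample, with a line at the mean of 5 samples. The first ratio falls from a mean of 1.36 in CRE- AMs to 0.144 in CD11b+ AMs, the second climbs from 0.256 to 14.6, and the third lies between 1.08 and 1.69 in all 15 samples.

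Other ribonucleases of the RNase A superfamily were read, with their inhibitor *Rnh1*, from a list of 24 symbols, of which 22 were in the files. In AMs 6 were tested, *Ear6*, *Rnase2b*, *Rnase4*, *Rnase6*, *Ang* and *Rnh1*. In CD11b- AMs 1 was called higher and none lower, and in CD11b+ AMs 1 was called higher and 1 lower. The gene that rose was *Ear6* in both. It had 1.52, 0.780, 1.69, 0.713 and 0.809 CPM in CRE- AMs, 15.9, 7.64, 12.5, 15.5 and 8.08 CPM in CD11b- AMs and 18.1, 10.8, 23.0, 14.4 and 12.4 CPM in CD11b+ AMs. All CRE+ samples were above all CRE- samples, while the CRE+ groups overlapped. The log2 fold change was 3.41 (SE 0.31, adjusted p = 9.79e-08) in CD11b- AMs and 3.80 (SE 0.31, adjusted p = 4.34e-09) in CD11b+ AMs, the opposite of *Ear1*. Between CD11b+ and CD11b- AMs *Ear6* was not called (0.40, SE 0.26, adjusted p = 0.254 by edgeR). Per 100 *Ear2* counts, *Ear6* had 0.256 ± 0.104 counts (SD, n = 5) in CRE- AMs, 4.13 ± 1.28 in CD11b- AMs and 14.6 ± 6.67 in CD11b+ AMs (exact permutation p = 0.00794 for each pair, 0.0119 after adjustment). As *Ear6* was named for its rise in these same samples and *Ear2* fell in them, these p-values restate those changes and add no separate support. The gene that fell was *Rnase2b*, with 2.58 ± 0.695 CPM in CRE- AMs, 2.38 ± 0.629 in CD11b- AMs and 0.501 ± 0.152 in CD11b+ AMs (SD, n = 5 each; log2 fold change in CD11b+ AMs -2.37, SE 0.38, adjusted p = 3.49e-05 by edgeR). Neither *Ear6* nor *Rnase2b* had a count in any KC sample. Of the relatives of the chitinase-like genes, 8 by list and 6 in the files, 2 were tested and none was called in any comparison. *Chia1* and *Chit1*, which encode active chitinases, had at most 36 and 8 counts in any sample.

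The IL-4 and IL-13 pathway, of which *Chil3* and *Chil4* are classical targets, was read from 22 genes that hold none of the members. In CD11b- AMs, 3 of 20 tested genes were called higher and none lower, and in CD11b+ AMs 8 were called higher and 1 lower, with a median log2 fold change of -0.12 and 0.47 against 0.0027 and -0.0052 over all genes tested. *Il13ra1*, a signalling receptor chain for IL-13, rose in both, from 164 ± 14.9 CPM (SD, n = 5) to 353 ± 44.2 and 486 ± 34.0. *Ccl22*, a chemokine, had 7.32 ± 1.90, 24.8 ± 2.36 and 29.6 ± 5.79 CPM in the same order. *Retnla*, which encodes the resistin-like molecule RELMα, had at most 14 counts in CRE- and 7 in CD11b- AM samples and between 138 and 1283 in CD11b+ AMs (log2 fold change against CRE- AMs 7.04, SE 0.81, adjusted p = 5.71e-07), *Mgl2* at most 11 against 15 to 97 counts, and *Ccl24* at most 3 against 17 to 145 counts. *Clec10a* had at most 35 counts in CRE- and 6 in CD11b- AM samples and between 39 and 157 in CD11b+ AMs. *Retnla*, *Mgl2*, *Ccl24* and *Clec10a* thus passed the filter on low counts through the CD11b+ samples. They could hardly be called lower, and they are part of the 8 called higher and of the median. *Tgm2* was the gene called lower, at 327 CPM in CD11b+ against 747 CPM in CRE- AMs (log2 fold change -1.21, SE 0.11, adjusted p = 1.34e-08). *Mrc1* was also lower there, by less than 2-fold, at 477 against 745 CPM (-0.66, SE 0.079, adjusted p = 9.69e-07). In KCs none of the 20 tested genes was called in either CRE+ group. Of 6 genes for binding partners of CHI3L1, 4 were tested, and *Lgals3* was called in CD11b+ AMs (log2 fold change 1.01, SE 0.053, adjusted p = 5.57e-12). Of 14 genes of the GM-CSF, TGF-β and PPARγ axis that keeps AMs, none was called in CD11b- AMs and *Jak2* alone was called in CD11b+ AMs, higher by 1.32 (SE 0.11, adjusted p = 5.91e-09). In KCs 1 gene of this axis was called higher in Tim4+ cells and 2 in Tim4- cells, with *Pparg*, the nuclear receptor itself, among the latter (log2 fold change 1.17, SE 0.22, adjusted p = 0.000441).

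Both families are also known from granulocytes. The summed level of neutrophil markers rose from CRE- over CD11b- to CD11b+ AMs, whereas no eosinophil marker passed the filter on low counts in AMs. Of 11 neutrophil markers, the summed level was between 54.1 and 74.1 CPM in CRE- AMs, between 937 and 2517 in CD11b- AMs and between 7941 and 10380 in CD11b+ AMs. In CRE- AMs most of it was *Mmp8*, at 44.5 to 67.4 CPM, and in CD11b+ AMs most of it was *S100a8*, at 4067 to 5235 CPM, and *S100a9*, at 3198 to 4254 CPM, whereas *Elane* and *Mpo* were at 0 throughout the AM samples, as were *Camp* and *Ngp* in CD11b- AMs. *Camp* and *Ngp* reached 60 and 238 counts in 1 CD11b+ sample, replicate 5. Of 8 eosinophil markers, the sum was at most 0.457 CPM in CRE- AMs, at most 2.15 in CD11b- AMs and between 0.244 and 8.69 in CD11b+ AMs, again highest in replicate 5, where *Prg2* had 121 and *Epx* 9 counts. *Epx* and *Prg2* were at 0 in every CRE- and CD11b- AM sample. The part of other cells in the changes was not tested, and in bulk samples fewer cells of a type and less RNA per cell cannot be told apart.

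In KCs the 6 genes were close to or under the depth, apart from *Ear2*. Only *Chil1*, *Chil3* and *Ear2* passed the filter on low counts. None was called in Tim4+ KCs, where 2.31% of the 12500 genes tested were called, 1 was called in Tim4- KCs (*Chil3*, higher) where 8.82% were, and none was called between Tim4- and Tim4+ KCs, where 5.45% were. For the comparisons with no call the smallest adjusted p of a member was 0.374 and 0.306.

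*Ear2* had between 34.6 and 40.6 CPM in Tim4+ KCs, with a median of 35.7, and between 30.7 and 61.6 CPM in Tim4- KCs, with a median of 34.5. Both groups overlapped the CRE- range, Tim4+ KCs only by replicate 2, at 34.61 CPM against 34.63 CPM in CRE- replicate 6. All other Tim4+ samples were above every CRE- sample. The highest sample was Tim4- replicate 1, the shallowest library. Against CRE- KCs, the log2 fold change was 0.20 (SE 0.13, adjusted p = 0.510) in Tim4+ KCs and 0.27 (SE 0.13, adjusted p = 0.156) in Tim4- KCs. *Ear1* had at most 12 and *Ear10* at most 20 counts in any KC sample. The 3 KC groups overlapped for each of the 5 members with counts. Eosinophil markers summed to 47.9 to 105 CPM in CRE-, 144 to 640 in Tim4+ and 149 to 682 in Tim4- KCs, of which *Ccr3* had 43.1 to 61.2, 110 to 595 and 144 to 680 CPM, while *Epx* was at 0 in every KC sample, and their part in the *Ear2* level was not tested.

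*Chil3* had 0 to 20 counts in the CRE- KC samples, with a median of 2, 0 to 41 in Tim4+ KCs, with a median of 12.5, and 17 to 73 in Tim4- KCs, with a median of 43. All 6 Tim4- samples held counts, as did 4 CRE- and 3 Tim4+ samples, and the groups overlapped in CPM. The log2 fold change in Tim4- KCs was 3.43 (SE 1.17, adjusted p = 0.0357). The call was lost when any 1 of 7 libraries was left out: CRE- replicates 1, 2, 3, 5 or 6, or Tim4- replicates 1 or 4, with adjusted p between 0.0581 and 0.0828. At its highest, in Tim4- replicate 1, *Chil3* reached 7.45 CPM, against 16600 CPM in the lowest AM sample. The summed level of 8 monocyte markers was between 573 and 805 CPM in CRE- KCs, 649 and 930 CPM in Tim4+ KCs and 817 and 1484 CPM in Tim4- KCs. Most of it was *Treml4*, with means of 496 CPM in CRE- and 595 CPM in Tim4- KCs, and *Plac8*, with 192 and 316 CPM. CRE- KCs thus already carried most of it, while *Ccr2* had means of 4.98 and 116 CPM. The part of monocytes in the result was not tested. Neutrophil markers summed to at most 57.9 CPM in CRE- and 83.1 CPM in Tim4- KCs, with *Camp*, *Ngp* and *Mpo* at 0 in both.

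*Chil1* had 11 counts at most in CRE- KCs, 4 or fewer in 5 Tim4+ KC samples and 122 in the sixth, replicate 4, and 0 to 46 in Tim4- KCs. The fitted log2 fold change in Tim4+ KCs, 2.78 (SE 1.52, adjusted p = 0.374), turned to -1.16 without that replicate. In Tim4- KCs it was 3.14 (SE 1.53, adjusted p = 0.142). Replicates 5 and 6 of the 3 KC groups, which carried 2706 to 3663 counts on Y-linked genes and none on *Xist*, held at most 1 *Chil1* count in any of the 6 samples. Replicates 1 to 4, with at most 4 Y-linked counts, held a *Chil1* count in 9 of 12 samples. With replicates 1 to 4 only, which was chosen after the data were seen, *Chil3* was not called in Tim4- KCs (log2 fold change 3.32, adjusted p = 0.126).

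**Figure D4:**
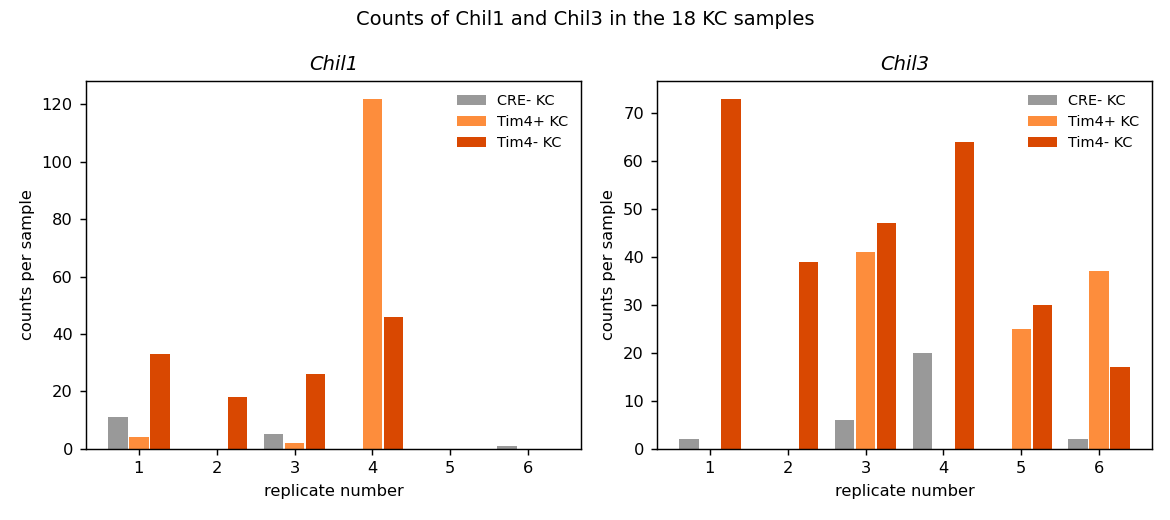
Counts of *Chil1* and *Chil3* in each of the 18 KC samples by replicate number, bars from 0, for CRE-, Tim4+ and Tim4- KCs. *Chil1* reaches 122 counts in Tim4+ replicate 4 and at most 1 in replicates 5 and 6, and *Chil3* is between 17 and 73 counts in every Tim4- sample.

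Relatives of the Ear genes did move in KCs. Of the same list, *Rnase4*, *Rnase6*, *Rnase12*, *Ang* and the inhibitor *Rnh1* were tested, and 3 of these 5 were called higher in Tim4+ KCs, 3 in Tim4- KCs and none was called lower. The called genes were *Rnase4*, *Rnase6* and *Ang*, which encodes angiogenin. *Rnase4* had 14.9 ± 3.43 CPM (SD, n = 6) in CRE- KCs, 105 ± 32.2 in Tim4+ KCs and 160 ± 31.5 in Tim4- KCs, with log2 fold changes of 2.80 (SE 0.20, adjusted p = 6.82e-09) and 3.41 (SE 0.20, adjusted p = 1.71e-10). *Rnase6* had 13.9 ± 2.26, 69.4 ± 12.5 and 101 ± 21.1 CPM in the same order, and *Ang* 2.86 ± 0.725, 15.7 ± 3.39 and 23.6 ± 4.92 CPM. For each of the 3 genes every CRE+ KC sample was above every CRE- KC sample. *Rnase4* and *Ang* are transcribed from a common locus with shared first exons, and how reads on those exons were counted was not examined. In AMs none of the 3 was called, with log2 fold changes of 0.82, -0.41 and 0.29 for *Rnase4*, *Rnase6* and *Ang* in CD11b+ cells.

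**Figure D5:**
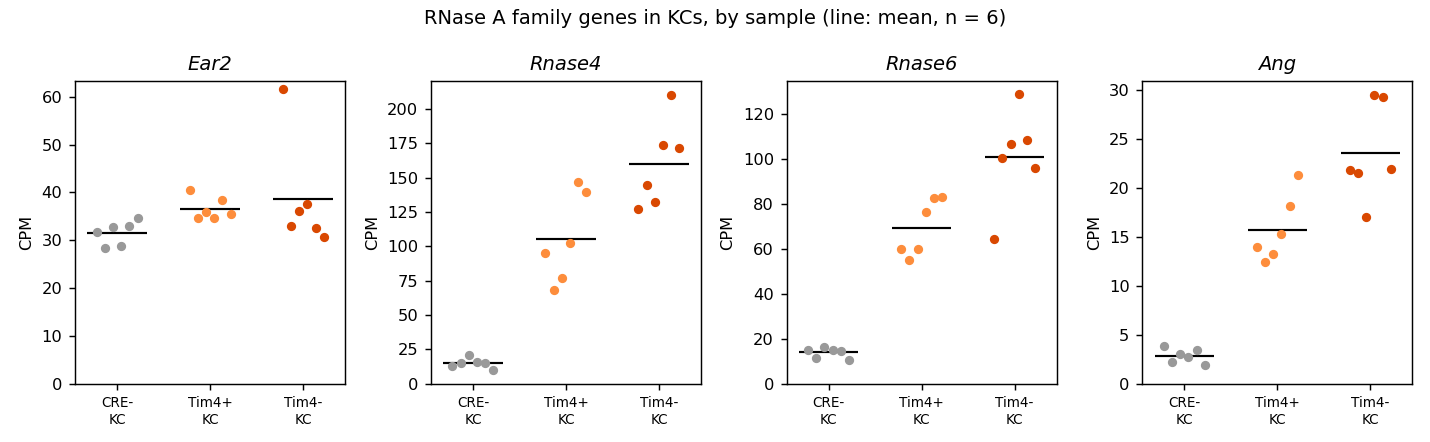
CPM of *Ear2*, *Rnase4*, *Rnase6* and *Ang* in each KC sample, axes from 0, with a line at the mean of 6 samples. *Rnase4*, *Rnase6* and *Ang* are higher in every Tim4+ and Tim4- sample than in any CRE- sample, while *Ear2* lies between 28.3 and 40.6 CPM in all samples but Tim4- replicate 1.

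An interaction term tested whether the tissues differed in their response, as the change averaged over Tim4+ and Tim4- KCs minus the change averaged over CD11b- and CD11b+ AMs. Of the 6 members, 2 were called, against 8.15% of 13294 genes. The difference was 3.32 (SE 0.44, adjusted p = 6.24e-07) for *Ear1* and 1.51 (SE 0.15, adjusted p = 1.23e-09) for *Ear2*, *Ear1* with too few counts in KCs for a test there and *Ear2* without a call in KCs. *Ear1* could hardly fall in KCs, so its value mainly restates its fall in AMs. The difference between the tissues was 2.11 (SE 0.78, adjusted p = 0.0542) for *Chil3*, 0.22 (SE 1.14, adjusted p = 0.967) for *Chil1* and 1.43 (SE 1.03, adjusted p = 0.382) for *Ear10*. *Chil4* was not called (adjusted p = 1.0 by edgeR), and its fitted value is not given because it had no count in KCs. The KC and AM samples differ in Cre line as well as tissue, and in the share of samples with Y-linked counts, and these cannot be told apart. Among the relatives, *Rnase4* (2.78), *Rnase6* (2.80) and *Ang* (2.67) were called by the same term.

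Of the 6162 genes that averaged 5 log2 CPM or more in some group, those whose centred log2 CPM over the 33 samples lay nearest to *Ear1* were *Rab44*, *Lipf* and *Cpne5*, with a root mean square difference between 0.917 and 0.966. The nearest to *Ear2* were *Ppp1r3d*, *Mccc2* and *Sept11* (0.399 to 0.462), and to *Chil3* were *Plet1*, *Car4* and *Slc39a2* (1.67 to 2.44). *Rab44* had a mean log2 CPM of 6.09, 4.19 and 0.74 in CRE-, CD11b- and CD11b+ AMs and was at or under -5.24 in each KC group, where *Ear1* had 9.19, 7.85 and 3.94 in the AM groups. *Plet1* had 10.29, 10.32 and 10.67 in the AM groups, where *Chil3* had 14.54, 14.59 and 15.37. The other 3 members did not reach that level in any group.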

How the data were processed

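The 33 libraries are bulk RNA-seq of sorted macs. Per the study's methods and the labels, the authors trimmed reads where quality dropped under 20, discarded reads under 35 bases, mapped to mm10 with TopHat2 2.1.0 and used HTSeq-count. The authors deposited raw counts, 1 table per sample with a row for each symbol. The tally of reads that mapped to several places is 0 in every file, so the planned test of that share could not be run, and 1.19% to 1.39% of reads were tallied as ambiguous. Strand settings are not given in the sources used here. The 5 tally rows were left out.

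Groups were compared with edgeR 4.0.16 under R 4.3.3 (TMM, its filter on low counts, quasi-likelihood test, Benjamini-Hochberg adjustment over all genes tested), with the 15 AM samples, the 18 KC samples, the 11 CRE- samples or all 33 samples (interaction) in a fit. SE is the size of the log2 fold change divided by the square root of F. Log2 CPM used a prior count of 0.5. The labels do not say whether samples are separate animals, so p-values measure the spread between these samples. The members and gene lists were chosen with earlier results of these data known. Genes named are the 6 members, *Zeb2*, up to 4 called genes per list with the largest fold change in CRE+ AMs, and the 3 nearest genes to each member with at least 5 log2 CPM in a group. *Rnase4*, *Rnase6*, *Rnase12*, *Rnh1*, *Ang*, *Chia1*, *Chit1*, *Tgm2*, *Mrc1*, *Pparg* and single markers were named after their values were seen. Replicate numbers of Tim4+ and Tim4- KCs pair the samples, with r of their deviations between 0.102 and 0.253 in all 6 pairs; the pairing comes from the labels' numbers, and the block changed no call there. Ratios were tested in Python 3.11.15 with scipy 1.17.1, and transcripts were aligned with Biopython 1.88. The script was tested on simulated data. Alternatives were limma-voom (limma 3.58.1), DESeq2 1.42.0, RLE factors, other filters, other samples in the fit, the adjusted p alone, the members left out of the library sizes, a replicate block, each sample left out and, added after the data were seen, KC replicates 1 to 4 only.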

Additional observations from a re-analysis of the deposited data

Results flagged for a closer look

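In 6 of 33 gene and group combinations 1 sample stood apart from the others of its group. Chance alone would give about 1 in 20 only for independent and normally distributed values. Several of these groups hold few counts, the hits of *Chil3* and *Chil4* in AMs share a library, and so do those of *Ear2* and *Ear10*. No excess over chance can thus be read from this number. *Chil1* was at 5.50 CPM (122 counts) in Tim4+ KC replicate 4, with at most 4 counts in the other samples of that group. *Chil3* was at 16600 CPM and *Chil4* at 2.41 CPM in CRE- AM replicate 1, both the lowest of their group. *Chil3* was at 1.05 CPM (20 counts) in CRE- KC replicate 4. *Ear2* was at 61.6 CPM and *Ear10* at 2.04 CPM (20 counts) in Tim4- KC replicate 1, the library with the fewest counts. The change in CRE+ KCs less that in CRE+ AMs differed between the tissues by the interaction term for *Ear1* (3.32 on the log2 scale) and *Ear2* (1.51). *Ear1* had at most 12 counts in any KC sample and could hardly fall there, so its term mainly restates its fall in AMs.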

How the results depend on the processing

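Of 223 counts of called members under alternatives, 207 kept within 1.5 times the value reported, as did the side and direction of 843 of 887 single log2 fold changes. With at least 10 counts in every sample fewer members could be tested, and 1 was called between CRE- KCs and CRE- AMs, 0 in Tim4- KCs and 1 by the interaction. With all 33 samples in 1 fit, 1 member was called in CD11b- AMs, 2 in Tim4- KCs and 1 between Tim4- and Tim4+ KCs. By the adjusted p alone 5 were called in CD11b+ AMs, against CRE- and against CD11b- cells alike. With KC replicates 1 to 4 only, 0 were called in Tim4- KCs. Leaving out 1 sample gave 0 to 1 called members in Tim4- KCs and 2 to 3 by the interaction, and the counts of the other 6 comparisons did not move. *Chil3* passed by the interaction without CRE- AM replicate 1 or any of 5 KC samples, most clearly without CRE- KC replicate 4 (3.41, adjusted p = 0.00938). The causes were not tested.

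Reversed values were small or of few counts. Over the samples left out, *Chil3* in CD11b- AMs ranged from -0.082 (without CRE- replicate 1) to 0.10, with -0.033 and -0.015 without CD11b- replicates 4 and 5, and the sum of *Chil3* and *Chil4* from -0.082 to 0.10, negative without the same 3 samples. *Chil1* ranged from -1.16 (without Tim4+ replicate 4) to 3.97 in Tim4+ KCs and from -0.17 (without Tim4- replicate 1) to 4.31 between Tim4- and Tim4+ KCs. *Ear2* between Tim4- and Tim4+ KCs ranged from -0.11 (without Tim4- replicate 1) to 0.13, and was -0.023 with limma-voom. The interaction of *Chil1* was -1.31 with limma-voom and -0.51 with the replicate block, and ranged from -1.75 (without Tim4+ replicate 4) to 1.40, negative without 6 single samples.

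In the other comparisons not every r exceeded 0.1, and the numbers were not taken to pair the samples. Between CD11b- and CD11b+ AMs r was positive in every pair, from 0.049 to 0.099, so a pairing there is not excluded. In these other comparisons the replicate block moved no count of called members. With the block *Chil4* between CD11b+ and CD11b- AMs had 0.60 and lost its adjusted p under 0.05. The summed Ear counts with the block were at -0.95 and -2.83 in CD11b- and CD11b+ AMs. Order by CPM or by CPM per kilobase in CRE- AMs exchanged the fifth and the sixth member, *Chil1* and *Ear10*. Levels of *Chil1*, *Ear10* and, in KCs, of *Chil3* rest on few counts, and depth limits them.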
